A study of Arabidopsis thaliana with 12 samples.

Results

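Redox protection genes encode the proteins that keep thiols, antioxidants and membrane lipids of plastids and mitochondria in working order. The 5 genes described here, NTRC, CHL, GLDH, CCS and SRX, were the genes of that kind chosen by symbol among the 692 array features that carry a single gene in GEO's platform annotation, out of 3439 features in all. The choice was made with earlier results of these data known. RNA of Arabidopsis thaliana came from 6 samples of wild-type plants of ecotype Wassilevskija given 100 mM proline for 3 h and from 6 samples of wild-type plants of the same ecotype given water. A time stands in the titles of the proline samples alone, so time and proline cannot be told apart from them, and the sources used here do not name the plant part. None of the 13 leaf and root marker genes looked for had a feature of its own, so the plant part was not checked against markers. Proline builds up in many plants during drought or salt stress and can harm cells in excess, and the submitters describe the dose as one that makes cellular proline toxic.

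Hydrogen peroxide in plastids and mitochondria is removed in large part by peroxiredoxins, enzymes that are oxidised in each cycle and must be reduced again by thioredoxin-type proteins. NTRC (AT2G41680) joins a thioredoxin reductase and a thioredoxin in a single plastid protein and passes electrons from NADPH to peroxiredoxins. SRX (AT1G31170) is sulfiredoxin, which repairs peroxiredoxins that have been oxidised too far to be reduced by thioredoxins. CCS (AT1G12520) is the copper chaperone that loads copper and zinc superoxide dismutases, the enzymes that turn superoxide into hydrogen peroxide. GLDH (AT3G47930), a galactonolactone dehydrogenase of the inner mitochondrial membrane, makes ascorbate in the last step of its synthesis and is also needed to assemble respiratory complex I. CHL (AT3G47860) is the chloroplastic lipocalin, which protects thylakoid lipids from peroxidation in drought and strong light. CHL and GLDH lie on chromosome 3 with 4 protein-coding genes between them in the gene order of the TAIR10.1 assembly.

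After proline, SRX was listed at 0 in every sample, CHL and GLDH were lower, NTRC was higher, and CCS was higher in 5 of 6 samples without passing the test. Intensities below are the deposited relative values, linear with a ceiling of 100, and changes are proline minus water on the log2 scale after quantile normalization. All 5 features were dim to moderate in signal. Their water means lay above those of 20.1% (SRX), 20.3% (CCS), 36.1% (GLDH), 37.3% (NTRC) and 69.1% (CHL) of the 3439 features, which is a statement about spot brightness and not about transcript number. In bulk RNA such as this, fewer cells that express a gene and less RNA per cell cannot be told apart. Because the labels do not say that replicates came from separate plants, the spread behind each p-value is that between these samples and may be technical.

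**Figure D1:**
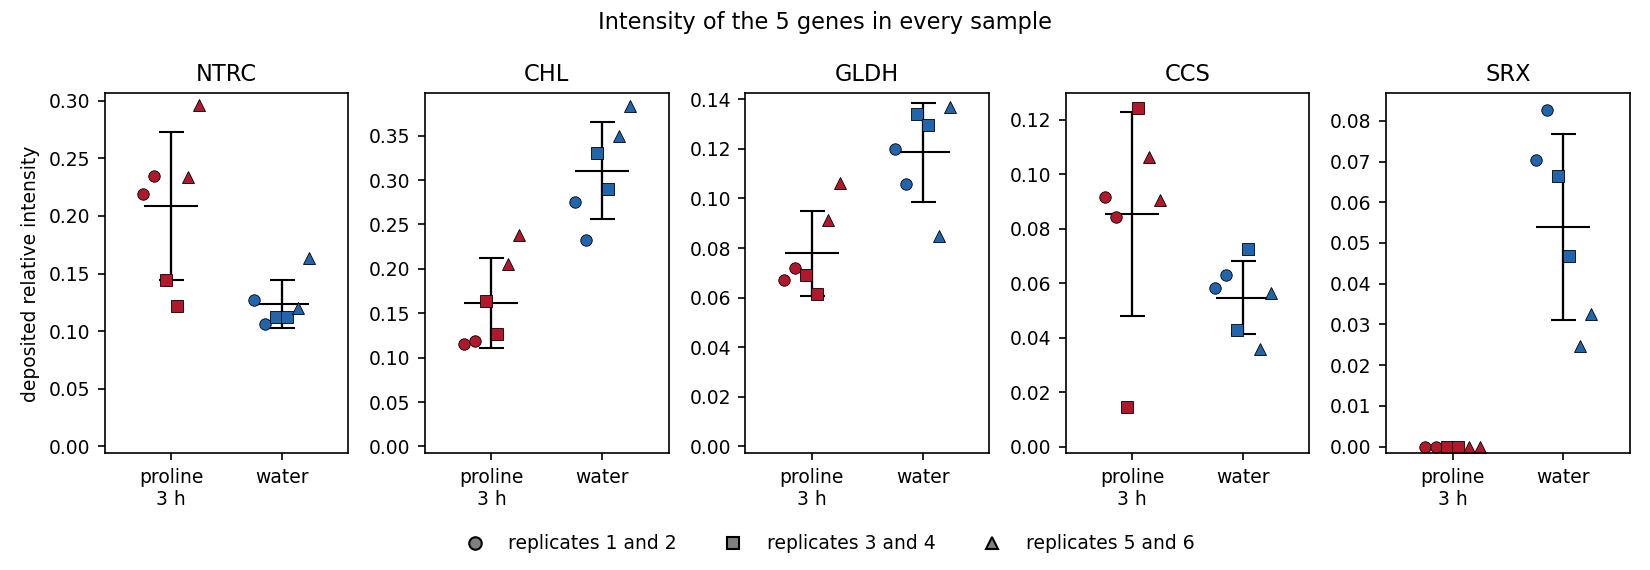
Deposited relative intensity (linear axis from 0) of the 5 genes in 6 proline samples (left, red) and 6 water samples (right, blue), with symbols for replicates 1 and 2, 3 and 4, and 5 and 6, and black bars for the mean ± SD of each group except SRX after proline. SRX sits at 0 in all 6 proline samples, and the lowest CCS value is proline replicate 3 at 0.0146.

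The feature of SRX (number 2656) was at 0 on all 6 proline arrays. The water values were 0.0704, 0.0826, 0.0663, 0.0468, 0.0247 and 0.0326 for replicates 1 to 6. The groups did not overlap, and water replicates 5 and 6 held the lowest of the values above 0. The difference in mean intensity with zeros counted was -0.0539 (exact permutation test over 924 arrangements, two-sided p = 0.00216, the smallest it can give). Of the 3238 features above 0 on at least 1 array, 22.6% had groups without overlap, and 7.2% had every proline value below every water value. Run over all 3238 of these features, the exact permutation test gave SRX a Benjamini-Hochberg adjusted p of 0.00956, and 36.3% of the features passed at 0.05. SRX was chosen with earlier results of these data known. Its p-values and the counts of zeros given next therefore describe these samples and are not independent support. The split of zeros itself, 6 of 6 proline samples against 0 of 6 water samples, gave p = 0.00216 in Fisher's exact test (two-sided). With every proline value at 0 and every water value above 0, this repeats the permutation result and is not separate support.

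A gene at 0 in one whole group and above 0 in the other was rare on these arrays. Of 3439 features, 5 (0.145%) were at 0 in all 6 proline samples and above 0 in all 6 water samples, and SRX was the one among them with a single gene name. The opposite pattern, 0 in all water samples and above 0 in all proline samples, was found for 3 features (0.0872%). Among 306 features that were above 0 in every water sample and had a water mean between the lowest and highest SRX water values, 4 (1.31%) were at 0 in all 6 proline samples, and 84 (27.5%) in at least 1. Zeros per array numbered 506 ± 21.7 after proline and 484 ± 21.2 in water (SD over 6 arrays each, two-sided exact permutation p = 0.115), and the part of this small excess in the SRX result was not tested. On each array the lowest value above 0 was 0.000765 or less, below the lowest SRX water value of 0.0247. That lowest value is not a detection limit, which is not known here. Since SRX had no proline value above 0, no fold is given for it, and 0 is reported only as the listed value. With zeros kept and 0.1 added to every value, SRX had a log2 difference of -0.54 (limma adjusted p = 0.00106), and one of -8.00 with each zero replaced by its array's lowest value above 0 (limma adjusted p = 3.46e-08). The added or substituted value sets these sizes. The p-values rest on it as well, since no proline spread was measured, and they are not support. With successive replicates averaged, which leaves 3 values a group, the exact permutation p for SRX was 0.1, the smallest that 3 against 3 can give. The averaged groups could not overlap, because every proline value was 0 and every water value was above 0.

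**Figure D2:**
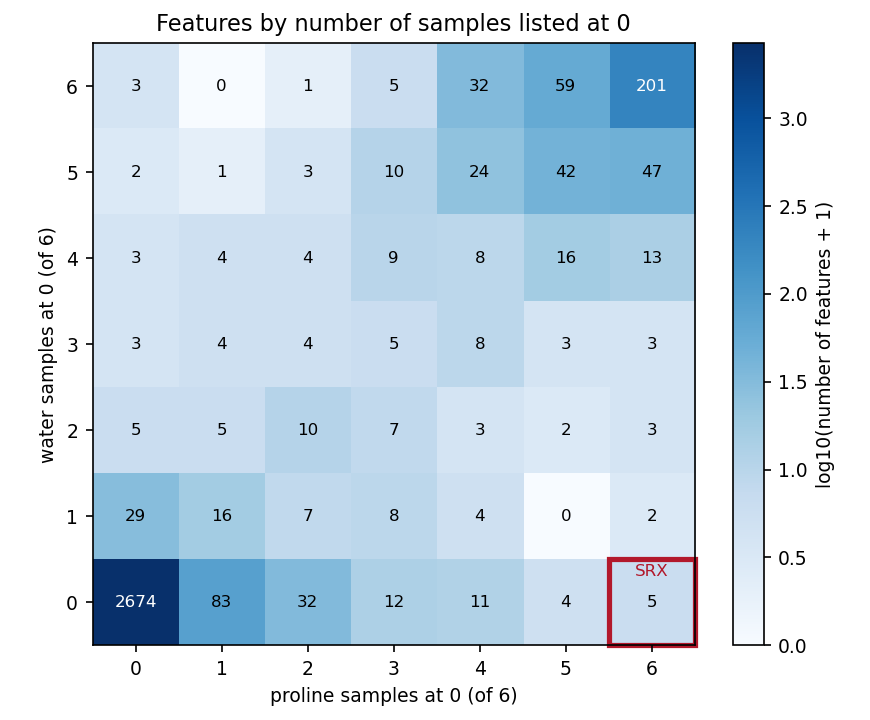
Number of features (printed in each cell, with colour on a log10 scale) by how many of the 6 proline samples (horizontal) and of the 6 water samples (vertical) list the feature at 0. The red frame marks the 5 features at 0 in all proline samples and in no water sample, SRX among them, against 2674 features above 0 on all 12 arrays.

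The other 4 genes had a value on every array and were tested with all features that had at least 4 values in each group. Of these 4, 1 rose and 2 fell (limma, Benjamini-Hochberg adjusted p under 0.05), where 44.1% of the 2861 tested features changed, 18.3% upward and 25.9% downward, as did 46.5% of the 576 tested features with a single gene. The split of all calls turned with the scaling: it was 523 higher and 740 lower here, 702 higher and 483 lower with no scaling, and 598 higher and 605 lower with cyclic loess. A count over 4 genes is not read as a departure from that background. Over all tested features the median log2 change was -0.12 after quantile normalization and 0.06 in the values as deposited, and each change below can be read against that shift. The arrays also differed by group in spread. The interquartile range of the deposited log2 values was 2.40 to 2.54 on proline arrays and 1.95 to 2.09 on water arrays. Quantile normalization makes these spreads alike and median scaling does not, and the part of this in each change was not tested.

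CHL showed the largest change of the 4. Its intensity ranged from 0.116 to 0.238 with a median of 0.145 after proline, and from 0.233 to 0.384 with a median of 0.311 in water. In the deposited values 5 of 6 proline samples lay below the lowest water sample, and proline replicate 6, the highest of its group, lay just above water replicate 2. After normalization the groups did not overlap, as was so for 27.5% of the 2674 features above 0 on all arrays. CHL averaged 0.161 ± 0.0510 after proline and 0.310 ± 0.0548 in water (SD, n = 6 each). These deposited means differed 1.92-fold. After normalization CHL fell 2.25-fold (log2 -1.17 ± 0.17 SE, 95% interval -1.53 to -0.80, limma adjusted p = 0.000168), and 123 of the 2861 tested features fell by more. CHL was lower after proline within all 6 replicate numbers, by log2 differences of -1.42 to -0.95.

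The fall of CHL was the one change among these 4 that passed in every setting tried. The log2 change was -1.18, -1.34 and -0.98 within replicates 1 and 2, 3 and 4, and 5 and 6. With these successive replicates averaged, its limma adjusted p was 0.0186. In both groups replicates 5 and 6 held the highest CHL intensities.

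GLDH also fell, by less and with less even samples. After proline its intensity ranged from 0.0617 to 0.106 with a median of 0.0707, and in water from 0.0850 to 0.137 with a median of 0.125. Of the 6 proline samples, 4 lay below the lowest water sample, which was water replicate 5. GLDH averaged 0.0779 ± 0.0171 after proline and 0.119 ± 0.0199 in water (SD, n = 6 each), and these deposited means differed 1.52-fold. After normalization GLDH fell 1.42-fold (log2 -0.51 ± 0.16 SE, 95% interval -0.85 to -0.17, limma adjusted p = 0.0181). It was lower after proline within 5 of 6 replicate numbers, and in replicate number 5 the log2 difference was 0.15.

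The GLDH change was uneven over successive replicates, though the unevenness was not tested. It was -0.47 in replicates 1 and 2, -0.95 in replicates 3 and 4, and -0.10 in replicates 5 and 6. When replicates 3 and 4 of both groups were omitted the log2 change was -0.29 (limma adjusted p = 0.255), and with successive replicates averaged the adjusted p was 0.0932. Over the scalings the log2 change ran from -0.40 with cyclic loess (limma adjusted p = 0.0559) to -0.81 with median scaling (limma adjusted p = 0.00127).

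NTRC was the member that rose. Its intensity ranged from 0.122 to 0.296 with a median of 0.226 after proline, and from 0.106 to 0.163 with a median of 0.116 in water. The groups overlapped, because proline replicates 3 and 4, at 0.145 and 0.122, lay inside the range of the water samples, while the other 4 proline samples lay above all water samples. NTRC averaged 0.208 ± 0.0644 after proline and 0.124 ± 0.0206 in water (SD, n = 6 each), and these deposited means differed 1.69-fold. After normalization NTRC rose 1.57-fold (log2 0.65 ± 0.19 SE, 95% interval 0.24 to 1.07, limma adjusted p = 0.0146). Among the tested features 436 rose by more.

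NTRC was higher after proline within all 6 replicate numbers, with log2 differences of 0.16 to 1.08. The change was 0.92 in replicates 1 and 2, 0.25 in replicates 3 and 4, and 0.78 in replicates 5 and 6. Its call was lost with successive replicates averaged (limma adjusted p = 0.110), after median scaling (limma adjusted p = 0.0507) and in the exact permutation test of deposited intensities (adjusted p = 0.0523). It was also lost when replicates 1 and 2 of both groups were omitted (log2 0.52, limma adjusted p = 0.153), and when replicates 5 and 6 were (log2 0.59, limma adjusted p = 0.0642).

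CCS had a higher value in most proline samples and did not pass the test. Its intensity ranged from 0.0146 to 0.124 with a median of 0.0912 after proline, and from 0.0357 to 0.0724 with a median of 0.0573 in water. Of the 6 proline samples, 5 lay above the highest water sample, and proline replicate 3, at 0.0146, lay below the lowest. CCS averaged 0.0853 ± 0.0375 after proline and 0.0547 ± 0.0134 in water (SD, n = 6 each), with a log2 change of 0.73 ± 0.38 SE (95% interval -0.10 to 1.56, limma adjusted p = 0.140). The residual SD of CCS was 0.72 on the log2 scale, above the upper quartile of 0.45 over the tested features.

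The CCS result depended on a single sample and on the scaling. Without proline replicate 3 the log2 change was 1.11 (limma adjusted p = 0.000721), and when replicates 3 and 4 of both groups were omitted it was 1.06 (limma adjusted p = 0.00477). That array listed 469 features at 0, the fewest among the proline arrays. With median scaling the log2 change of CCS was 0.23 (limma adjusted p = 0.699), and with no scaling 0.43 (limma adjusted p = 0.472). Nothing in the labels sets proline replicate 3 apart, so the value with all 12 samples stands as the result.

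**Figure D3:**
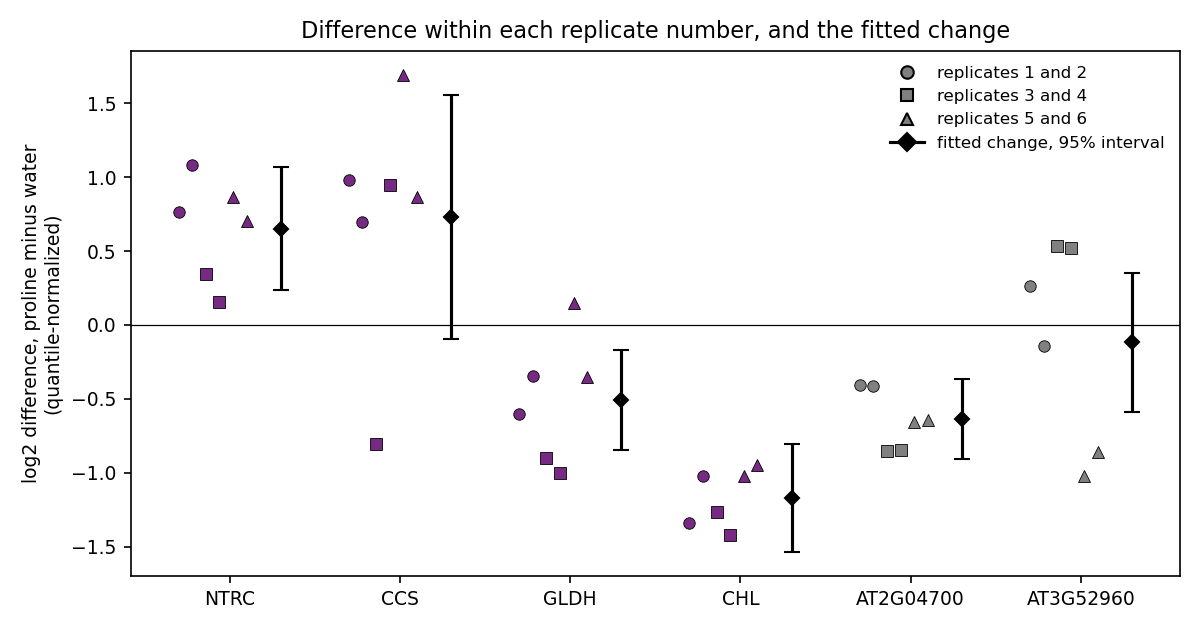
Log2 difference, proline minus water, within each of the 6 replicate numbers (symbols as pairs of successive replicates) and the fitted change with its 95% interval (black diamonds) for NTRC, CCS, GLDH, CHL and 2 further redox loci. All 6 CHL points lie between -1.42 and -0.95, while CCS has 1 point below 0, at -0.80.

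The 4 changes lay within the range of change seen across the array. In the distribution of log2 changes over 2861 features, CHL lay towards the lower tail, while GLDH, NTRC and CCS lay where many features, passing and not passing, were found. The residual SD on the log2 scale was 0.30 for CHL, 0.27 for GLDH and 0.34 for NTRC, against a median of 0.29 over the tested features.

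**Figure D4:**
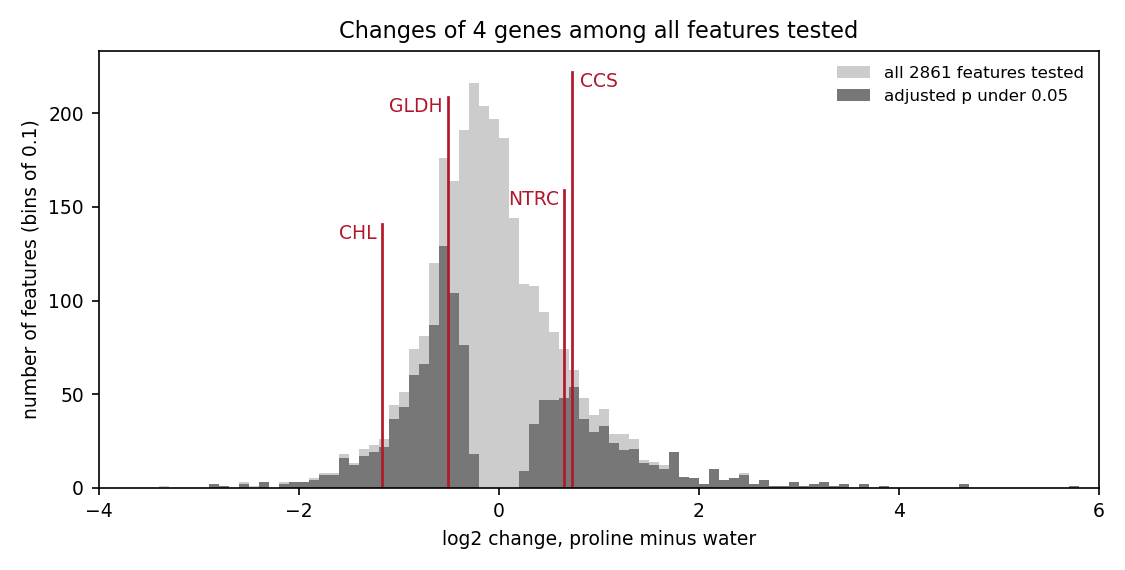
Histogram of the log2 change, proline minus water, of all 2861 tested features (light grey, bins of 0.1) and of those with an adjusted p under 0.05 (dark grey), with red lines at CHL (-1.17), GLDH (-0.51), NTRC (0.65) and CCS (0.73). The bulk of features is centred slightly below 0, at a median of -0.12.

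Few other genes of the same pathways could be read. Of 107 genes listed for the thioredoxin system, peroxiredoxins and their repair, ascorbate synthesis, the ascorbate-glutathione cycle, superoxide dismutases with copper delivery, thylakoid protection, catalases with glutathione peroxidases, and alternative electron sinks, 7 had a feature of their own, and 5 of those are the genes above. A further 6 features carried a listed gene together with other genes and were not used. The remaining genes with their own feature were AT2G04700, listed under the thioredoxin system, and AT3G52960, listed under peroxiredoxins. Over the 6 listed genes that could be tested, 1 rose, 3 fell and 2 did not pass, where 44.1% of all tested features and 46.5% of those with a single gene changed. These 6 genes had a median log2 change of -0.31 against -0.12 for all tested features, and the 4 tested members among them had a median of 0.07. With so few genes, no shift of the listed genes is read from this.

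AT2G04700 ranged from 0.181 to 0.311 with a median of 0.268 after proline, and from 0.270 to 0.351 with a median of 0.326 in water. The groups overlapped in the deposited values and did not after normalization, as was so for 27.5% of the 2674 features above 0 on all arrays. After normalization AT2G04700 fell 1.55-fold (log2 -0.64 ± 0.12 SE, limma adjusted p = 0.00139), with lower values in the proline sample of all 6 replicate numbers. With no scaling its log2 change was -0.37 (limma adjusted p = 0.0451). With successive replicates averaged its limma adjusted p was 0.0505. AT2G04700 and NTRC, both in the thioredoxin list, moved in opposite directions, and each had its lowest proline values in replicates 3 and 4. AT3G52960 ranged from 0.0497 to 0.128 with a median of 0.0778 after proline, and from 0.0800 to 0.141 with a median of 0.0899 in water. Its log2 change was -0.12 ± 0.22 SE (95% interval -0.59 to 0.35, limma adjusted p = 0.682), with differences above 0 in replicates 3 and 4 and below 0 in replicates 5 and 6.

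**Figure D5:**
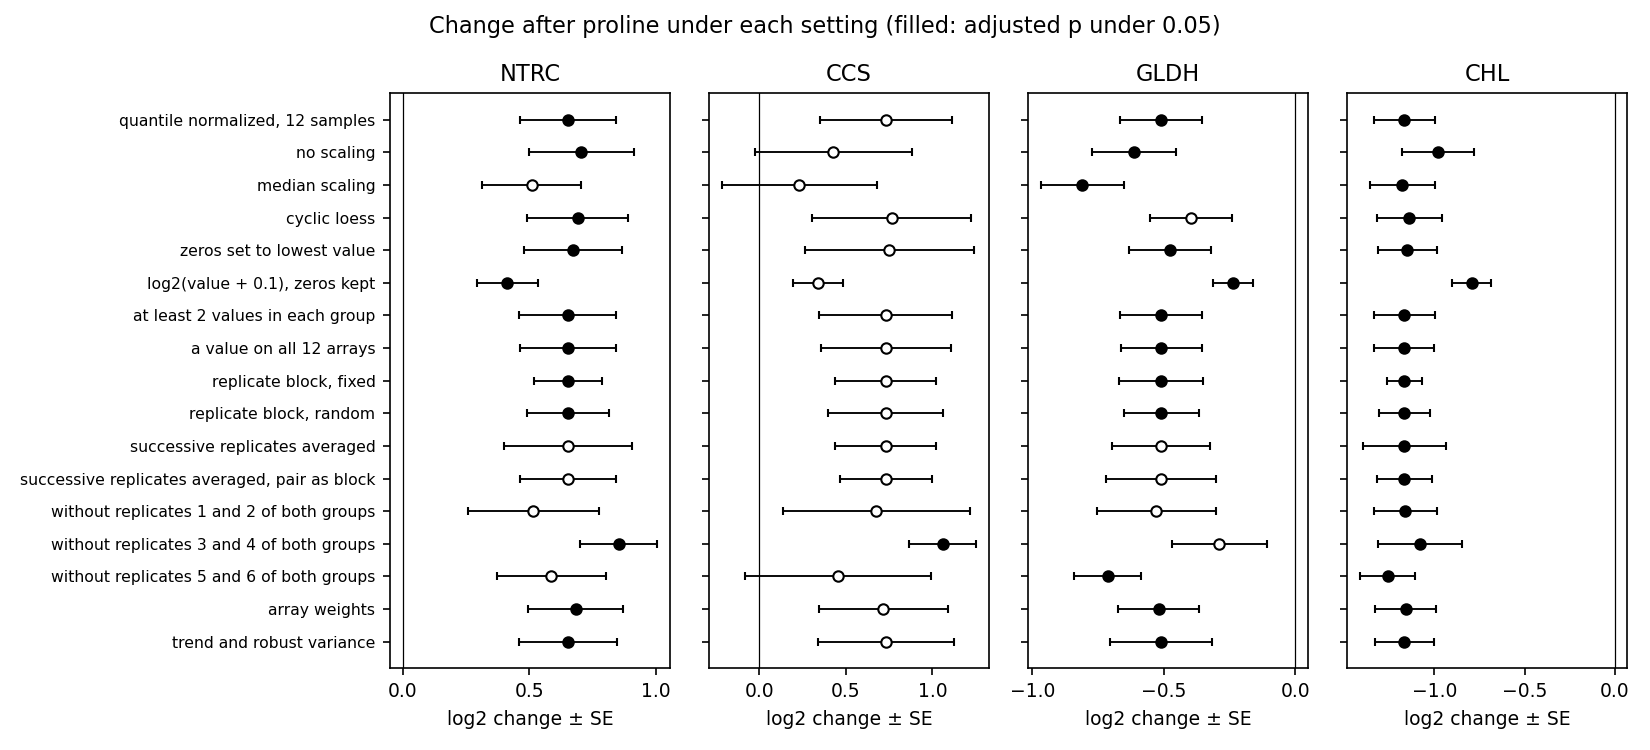
Log2 change after proline with its SE for NTRC, CCS, GLDH and CHL under each processing setting, filled where the adjusted p was under 0.05. Every point of CHL is filled and below 0, while NTRC and GLDH lose their fill with successive replicates averaged.

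The genes whose normalized values followed each member most closely over the 12 arrays were sought among 534 other features with a single gene and a value on every array. For NTRC they were AT2G46630 (Pearson r = 0.92) and AT4G03150 (r = 0.91), and with group means removed r was 0.91 and 0.85. For CHL they were AT5G52810 and AT4G24750 (r = 0.95 each, and 0.78 and 0.83 with group means removed). For GLDH they were AT1G49850 (r = 0.87) and AT5G42070 (r = 0.84), and with group means removed r was 0.71 and 0.69. For CCS they were AT5G41960 (r = 0.78) and AT2G37880 (r = 0.77), with 0.71 and 0.69 after the same removal. These correlations describe 12 arrays that share treatment, replicate number and scaling, and they were picked as the highest of many. No other member was among the closest of any member.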

How the data were processed

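RNA of 12 samples was measured on 1-colour arrays. Values were deposited as linear relative intensity, from exact zeros up to a ceiling of 100. For the authors' background correction, scaling and zeros, the steps are not given in the sources used here. Signal over background is unknown and the number of arrays limits the precision. Groups come from the sample titles.

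Zeros were set to missing, and log2 values were quantile normalized. Features with at least 4 of 6 values in each group were tested (limma 3.58.1, lmFit and eBayes, R 4.3.3, two-sided, Benjamini-Hochberg adjustment over 2861 features). SRX missed that filter and was compared by exact permutation of deposited intensities with zeros counted (scipy 1.17.1). The limma and permutation steps were tested on simulated data. Genes were named by GEO's platform annotation from features with 1 gene, of which 690 of 692 matched a TAIR10.1 locus.

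The members, gene lists and alternatives were chosen with earlier results of these data known. The named genes are the 5 members, every listed redox gene with its own feature, and for each member with a value on every array the 2 genes most correlated with it. The labels do not say whether samples of the 2 groups that share a replicate number are paired. After removing group means, samples sharing a number correlated at 0.18 to 0.40 over 2674 features. Removing group means makes the covariances of a sample with all samples of the other group cancel out. Positive values for the same number therefore go with negative covariances, on average, for different numbers. Samples with different numbers were not compared directly across groups, and pairing was not tested. Successive replicates within a group also correlated, at 0.03 to 0.30. For unrelated samples, removing group means would make correlations within a group negative on average, but not those across groups. The ranges within and across groups are therefore not on the same scale. Alternatives were other scalings, zeros set to the lowest value or kept with a pseudocount of 0.1, other filters, blocks (statmod 1.5.0), averaged or omitted successive replicates, array weights, another variance model, the permutation test and leaving out each sample.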

Additional observations from a re-analysis of the deposited data

Results flagged for a closer look

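Of 13 groups of 6 normalized values, for the members and the 2 further redox loci, 1 had a sample whose distance from the others passed Dixon's limit for 6 values, and chance gives about 0.65 such groups. In proline replicate 3, CCS had a normalized log2 intensity of -5.55, and the other 5 proline samples lay between -3.47 and -3.02, so the gap to the nearest sample took up 0.824 of the group's range.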

How the results depend on the processing

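CHL kept its direction and its call under all 17 other settings and without each of the 12 samples (log2 -1.27 to -1.10). The number of features changed was 1263, and 661 or 692 with successive replicates averaged, without or with the pair as a block. With the replicate number as a fixed block it was 1360, and the block changed no call of a member. Without single samples it was 1185 to 1220. NTRC kept its direction throughout and missed the threshold after median scaling (log2 0.51, adjusted p = 0.0507), with successive replicates averaged (log2 0.65, adjusted p = 0.110, and 0.0661 with the pair as a block), when both groups lost replicates 1 and 2 (0.52) or 5 and 6 (0.59), and in the exact permutation test on deposited intensities (difference 0.0848, adjusted p = 0.0523). Without single samples it was 0.56 to 0.78. GLDH missed it after cyclic loess (-0.40), with successive replicates averaged (-0.51, adjusted p = 0.0932, and 0.136 with the pair as a block), and when both groups lost replicates 1 and 2 (-0.53) or 3 and 4 (-0.29). Without single samples it was -0.62 to -0.44. CCS passed without proline replicate 3 and when both groups lost replicates 3 and 4 (1.06), and without single samples it was 0.60 to 1.11. Its change was 0.23 with median scaling and 0.43 with no scaling, and it passed in neither. Median scaling gave GLDH -0.81. With 0.1 added to every value, which shrinks changes of dim features, CHL had a log2 change of -0.79, GLDH -0.24, NTRC 0.41 and CCS 0.34. The SRX difference of -0.0539 reached an exact permutation p of 0.1 with successive replicates averaged and an exact sign-flip p of 0.0312 over replicate numbers. Each is the smallest p that its test can give. Without single samples the SRX difference was -0.0598 to -0.0482. With zeros left out SRX had no proline value and gave no result.

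Alternatives for the further loci were chosen after the data were seen. AT2G04700 missed the threshold with successive replicates averaged and in the permutation test (difference -0.0696, adjusted p = 0.0569). AT3G52960, which passed in none, changed sign without proline replicate 5 (0.013), without water replicate 6 (0.00021) and when both groups lost replicates 5 and 6 (0.29), and ranged from -0.23 to 0.013 without single samples. Apart from fewer samples where some are left out or averaged, the cause of these differences was not tested. Missing signal over background limits what the dim features, SRX and CCS above all, can show.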
